A study of Mus musculus with 2 samples.

Results

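The platelet-derived growth factor (PDGF) family was followed across the cells of dystrophic mouse muscle through 7 genes, taken by symbol: the 4 ligand genes Pdgfa, Pdgfb, Pdgfc and Pdgfd, the 2 receptor genes Pdgfra and Pdgfrb, and Pdgfrl, which encodes a protein resembling the outer part of a PDGF receptor but without a kinase. All 7, of 24984 gene symbols in the count tables, had reads in both libraries. The data are droplet-based single cell RNA-seq of live cells sorted from hind limb muscle. All mice were mdx, a strain without dystrophin that models Duchenne muscular dystrophy. Ctrl mice were Pax7CreERT2/R26YFP; Yy1+/+; mdx and dKO mice were Pax7CreERT2/R26YFP; Yy1 f/f; mdx, so both carried the mdx mutation, the tamoxifen-inducible Cre and the YFP reporter, and only the Yy1 alleles set them apart. Per the study's methods both received tamoxifen for 5 days at 1.5 months of age and were taken 1 month later, whereas the sample label gives the Ctrl library as untreated. Cre was driven by Pax7, so deletion of Yy1, which encodes a zinc finger transcription factor, was limited to muscle stem cells (MuSCs) and their progeny, and every other cell type below kept the gene. Each group was 1 library of 3 pooled mice. There were therefore no replicates and no test, and every interval below is a 95% interval that covers counting error only.

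RNA molecules were counted through unique molecular identifiers (UMIs), with 45556596 UMIs in 4527 cells of Ctrl and 33815155 in 3483 cells of dKO, and medians of 7697 and 7615 UMIs per cell. Filtering left 4010 and 3079 cells. Levels are UMIs summed over a cell class and scaled to counts per 1000000 UMIs of that class (CPM), which allows 1 gene to be compared between classes and libraries but not different genes with each other. Yy1 (chromosome 12, 108792973 to 108820148, plus strand, GRCm38) had 369 UMIs in the 117 MuSC-like cells of Ctrl (160 CPM, 144 to 177) and 3 in the 30 of dKO (4.85 CPM, 1.00 to 14.2), while it stood at 121 and 132 CPM in fibro/adipogenic progenitor (FAP)-like cells.

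PDGFs are secreted as dimers that bring receptor chains together and switch on their tyrosine kinases. Receptor alpha answers mainly to the A and C ligands, receptor beta to the B and D ligands, and the B ligand also binds alpha. The C and D ligands are made with a domain that proteases must remove before they can bind. In skeletal muscle receptor alpha is the usual surface marker of FAPs, the mesenchymal cells that make matrix, fat and scar. Receptor beta is carried by mural cells, the pericytes and smooth muscle that endothelial cells recruit with the B ligand.

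The genes lie apart in the mouse genome (GRCm38). Pdgfa (5:138976014-138997370, minus strand) and Pdgfra (5:75152292-75198215, plus strand) are on chromosome 5. Pdgfb is on the minus strand at 15:79995874-80014977. On the plus strand are Pdgfc at 3:81036416-81214040, Pdgfd at 9:6168584-6378850, Pdgfrb at 18:61045150-61085061 and Pdgfrl at 8:40926212-40990785.

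Cells were clustered without the 7 genes, so that no PDGF gene decided which class a cell fell into. The 23 clusters made 14 classes, named from marker genes and written here as "like". FAP-like cells were 27.4% of Ctrl and 37.4% of dKO cells, monocyte/macrophage (MO/MP)-like cells 35.4% and 36.7%, and endothelial cell (EC)-like cells 11.6% and 5.81%. The smooth muscle/pericyte-like class, led by Myh11 and also holding all 9 pericyte markers, had 107 Ctrl and 38 dKO cells. Tenocyte-like cells, of tendon, numbered 145 and 90. The MuSC-like cluster was led by Gal, Myog and Mymx, the latter pair being genes of differentiating myoblasts.

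Among the receptors, Pdgfra was nearly confined to FAP-like cells. They held 94.2% of its UMIs in Ctrl (93.5 to 94.8) and 94.7% in dKO (94.0 to 95.3). Its level there was 349 CPM (340 to 359) in the Ctrl against 314 CPM (305 to 323) in the dKO library. Cycling FAP-like cells followed at 185 CPM (162 to 211) and 163 CPM (142 to 186), and tenocyte-like cells at 29.0 CPM (21.1 to 38.8) and 37.2 CPM (25.6 to 52.3). The intervals of these 3 classes did not overlap in either library. No other class described here passed 5.61 CPM. Smooth muscle/pericyte-like cells had 0 Pdgfra UMIs in both libraries, which allows up to 3.65 CPM in Ctrl and 13.0 CPM in dKO. No UMI of the FAP marker was thus counted in the class with the highest level of Pdgfrb.

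Thinned to 2000 UMIs per cell, with 63 Ctrl and 54 dKO cells too shallow and left out, 48.1% of FAP-like cells in Ctrl (45.0 to 51.2) and 45.7% in dKO (42.7 to 48.7) carried a Pdgfra UMI. Unthinned, 86.9% and 84.7% did, the median cell holding 11762 and 11872 UMIs. B cell-like cells, which should lack the gene, gave 0 of 97 and 0 of 71 thinned cells, with exact binomial limits of 3.73% and 5.06%, and 0.704% and 1.15% unthinned at median depths of 2317.5 and 2556 UMIs. The share in FAP-like cells was therefore far above background.

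Pdgfrb was spread more widely. Smooth muscle/pericyte-like cells had the highest level, 646 CPM (592 to 703) from 531 UMIs in Ctrl and 432 CPM (351 to 525) from 100 UMIs in dKO. Tenocyte-like cells followed at 194 CPM (173 to 217) and 146 CPM (122 to 173), then FAP-like cells at 161 CPM (154 to 167) and 122 CPM (117 to 128). The intervals of tenocyte-like and FAP-like cells were apart in Ctrl and overlapped in dKO. Cycling FAP-like cells came next at 120 CPM (101 to 141) and 88.3 CPM (73.1 to 106). EC-like cells stood at 7.88 and 3.44 CPM. Although the level was highest in smooth muscle/pericyte-like cells, FAP-like cells were so many that they held 69.7% of all Pdgfrb UMIs in Ctrl and 83.8% in dKO, against 15.5% and 4.48% for smooth muscle/pericyte-like cells.

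Pdgfrl was a gene of tenocyte-like and FAP-like cells. Its level was 203 CPM (181 to 227) in Ctrl against 291 CPM (257 to 329) in dKO tenocyte-like cells, and 169 CPM (162 to 175) and 93.8 CPM (89.0 to 98.8) in FAP-like cells. The intervals of these classes were apart in both libraries. Cycling FAP-like cells stood at 86.5 and 55.9 CPM and MuSC-like cells at 20.8 and 4.85 CPM. In EC-like cells, 1 UMI was found among 465 Ctrl cells and 0 among 179 dKO cells. FAP-like cells held 83.5% of Pdgfrl UMIs in Ctrl and 80.5% in dKO, and tenocyte-like cells 10.5% and 14.4%.

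**Figure D1:**
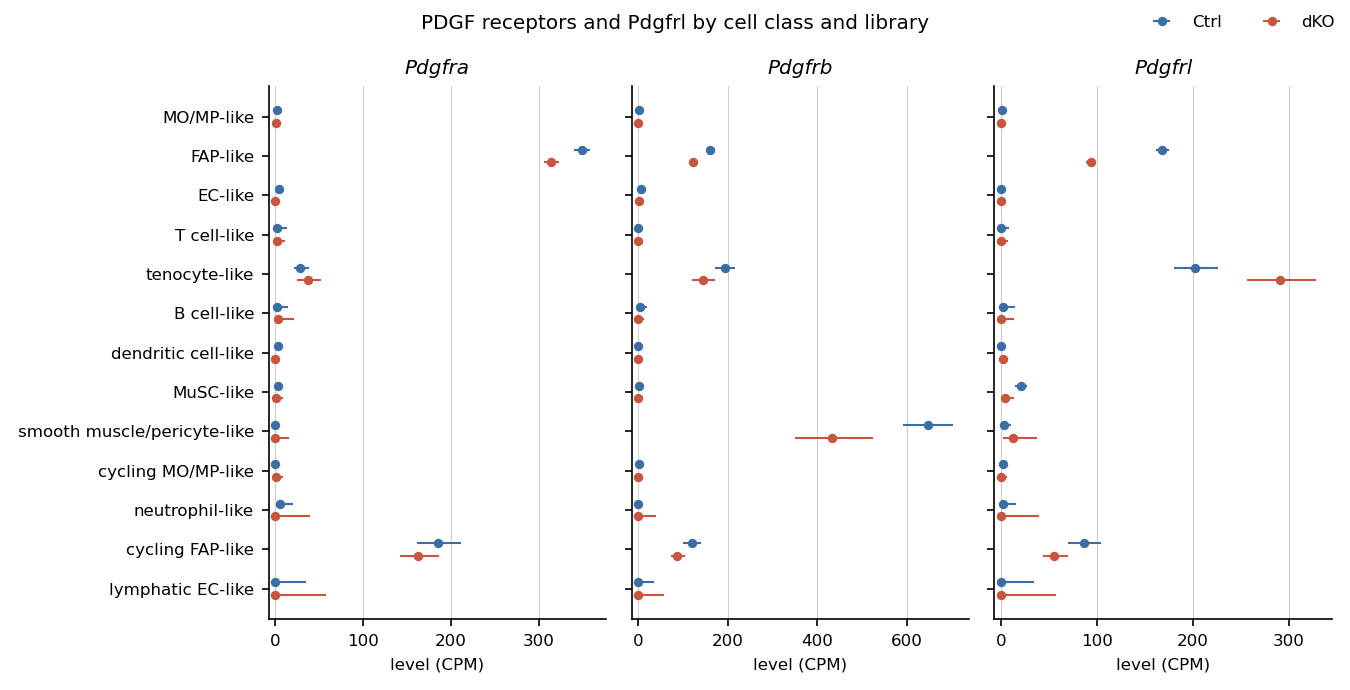
Level in CPM (horizontal axes, linear, a separate scale for each gene) of Pdgfra, Pdgfrb and Pdgfrl in 13 cell classes of the Ctrl (blue) and dKO (red) libraries, with bars for 95% Poisson counting intervals. Pdgfra is high in FAP-like and cycling FAP-like cells, Pdgfrb is highest in smooth muscle/pericyte-like cells (646 CPM in Ctrl and 432 CPM in dKO), and for Pdgfrl the red point lies left of the blue one in FAP-like cells and right of it in tenocyte-like cells.

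The dKO library was then compared with Ctrl class by class, asking whether loss of Yy1 in MuSCs went with other PDGF levels in the cells around them. A gene counted as higher or lower where the ratio passed 1.5-fold and its counting interval left out 1, and a ratio was given for a gene with at least 20 UMIs in a class over both libraries. By this rule no PDGF gene was called in MO/MP-like cells (4.3% of 8706 genes higher and 2.76% lower), in EC-like cells (4.46% and 6.23% of 4736 genes) or in tenocyte-like cells (2.89% and 3.37% of 3147 genes). These percentages are over genes with at least 100 UMIs in the class. In turn 1 of the 6 PDGF genes with a ratio in FAP-like cells was lower in dKO, Pdgfrl, and 0 were higher. Of 10254 genes of that class, 3.05% were lower and 2.56% higher.

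Both receptor genes and Pdgfrl lay below Ctrl in dKO FAP-like cells, by different amounts. Pdgfrl had 2505 UMIs in Ctrl and 1439 in dKO, a log2 ratio of -0.84 (-0.94 to -0.75). Pdgfrb had 2387 and 1872 UMIs, a log2 ratio of -0.40 (-0.48 to -0.31). Pdgfra had 5190 and 4819 UMIs, with a log2 ratio of -0.15 (-0.21 to -0.10), against a median of -0.060 over all genes of the class. Scaled to that median, Pdgfra stood at -0.092. The thinned shares of cells with a UMI were 22.7% (20.2 to 25.4) and 14.6% (12.5 to 16.8) for Pdgfrl and 26.5% (23.8 to 29.3) and 20.5% (18.2 to 23.0) for Pdgfrb, so that for both genes the intervals of Ctrl and dKO did not overlap. For Pdgfrl, B cell-like cells gave 0 of 97 and 0 of 71 thinned cells. For Pdgfrb they gave 2 of 97 and 0 of 71. Unthinned, 56.1% and 41.96% of FAP-like cells had a Pdgfrl UMI and 71.7% and 64.1% a Pdgfrb UMI.

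**Figure D2:**
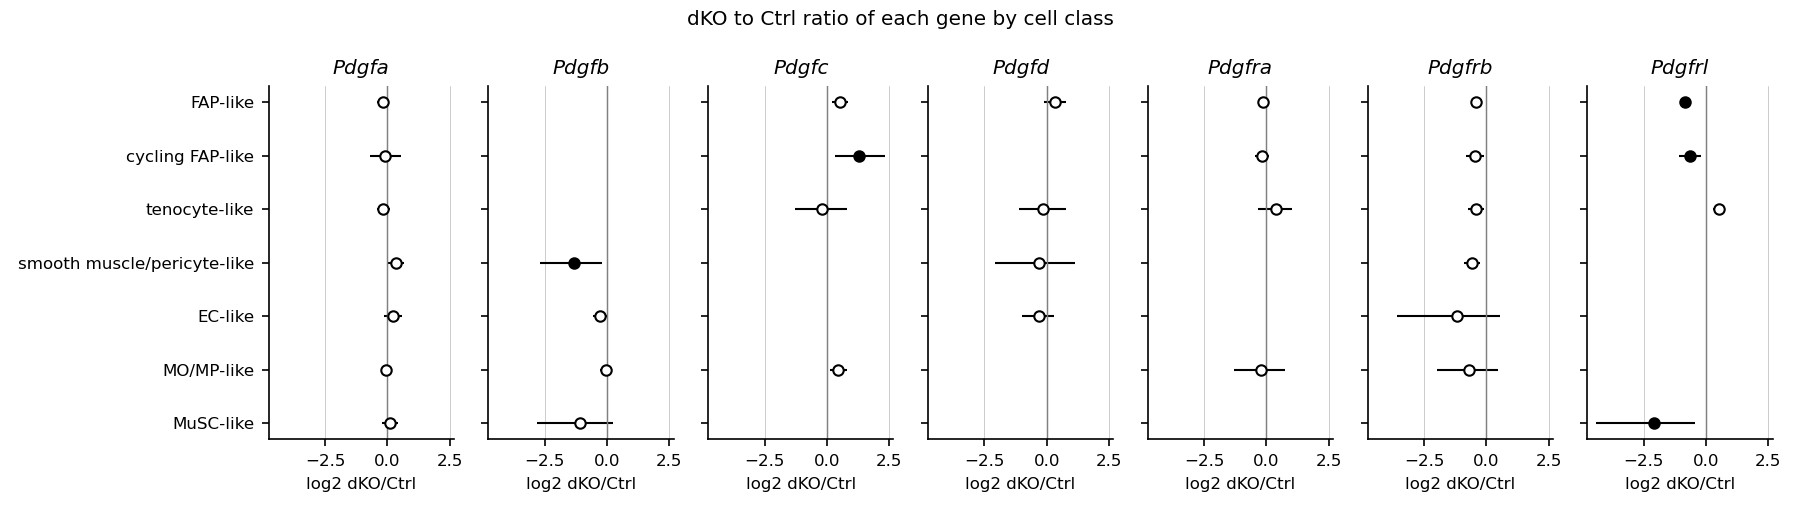
Log2 ratio of dKO to Ctrl CPM (horizontal axis) of the 7 genes in 7 cell classes, with bars for 95% counting intervals and filled points where the ratio passed 1.5-fold with an interval that left out 0 on this scale. Points are missing where a gene had under 20 UMIs over both libraries. For Pdgfrl the FAP-like, cycling FAP-like and MuSC-like points are filled and left of 0, and the tenocyte-like point lies right of it.

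FAP-like cells fell into 4 clusters besides the cycling one, and the receptor genes and Pdgfrl differed among them. Pdgfra in Ctrl was highest in the cluster led by Col6a6 and Sfrp1 (439 CPM, 421 to 457) and lowest in the cluster led by Cxcl5 and Il1rl1 (241 CPM, 229 to 254), with 405 CPM in the cluster of C7 and Inmt and 335 CPM in the cluster holding Pi16 and Dpp4. In dKO the order was another: the C7/Inmt cluster led at 369 CPM, and the Cxcl5/Il1rl1 cluster at 280 CPM was still lowest. The dKO to Ctrl ratio of Pdgfra went both ways, with a log2 value of -0.47 (-0.57 to -0.38) in the Col6a6/Sfrp1 cluster and 0.22 (0.11 to 0.32) in the Cxcl5/Il1rl1 cluster.

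Pdgfrb and Pdgfrl, by contrast, had log2 ratios below 0 in each of the 4 clusters and in cycling FAP-like cells. For Pdgfrb they were -0.10 (-0.24 to 0.03) in the Col6a6/Sfrp1 cluster, -0.48 in the C7/Inmt cluster, -0.57 in the Cxcl5/Il1rl1 cluster, -0.51 in the Pi16/Dpp4 cluster and -0.44 in cycling cells, and the interval of the first alone held 0. For Pdgfrl the values were 252 and 132 CPM in the Col6a6/Sfrp1 cluster (log2 ratio -0.93, -1.08 to -0.79) and 141 and 83.2 CPM in the Cxcl5/Il1rl1 cluster (-0.76, -0.93 to -0.60). In cycling cells, a class of its own, Pdgfrl was lower by the 1.5-fold rule (-0.63), as were 5.45% of 3722 genes. The C7/Inmt cluster had 130 and 105 CPM (-0.30, -0.52 to -0.077). Pi16/Dpp4 cells had little Pdgfrl in either library, 20.2 CPM (13.2 to 29.7) and 13.3 CPM (8.42 to 19.9). Their log2 ratio was -0.61 (-1.48 to 0.26), from 26 and 23 UMIs, with an interval that held 0.

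The make-up of the FAP-like class differed between libraries, and 13 of 13 FAP marker genes were detected in each, at a summed 46132 CPM in Ctrl and 42544 CPM in dKO. With the dKO clusters weighted as in Ctrl, the log2 ratios were -0.77 for Pdgfrl, -0.33 for Pdgfrb and -0.16 for Pdgfra, close to the unweighted values.

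**Figure D3:**
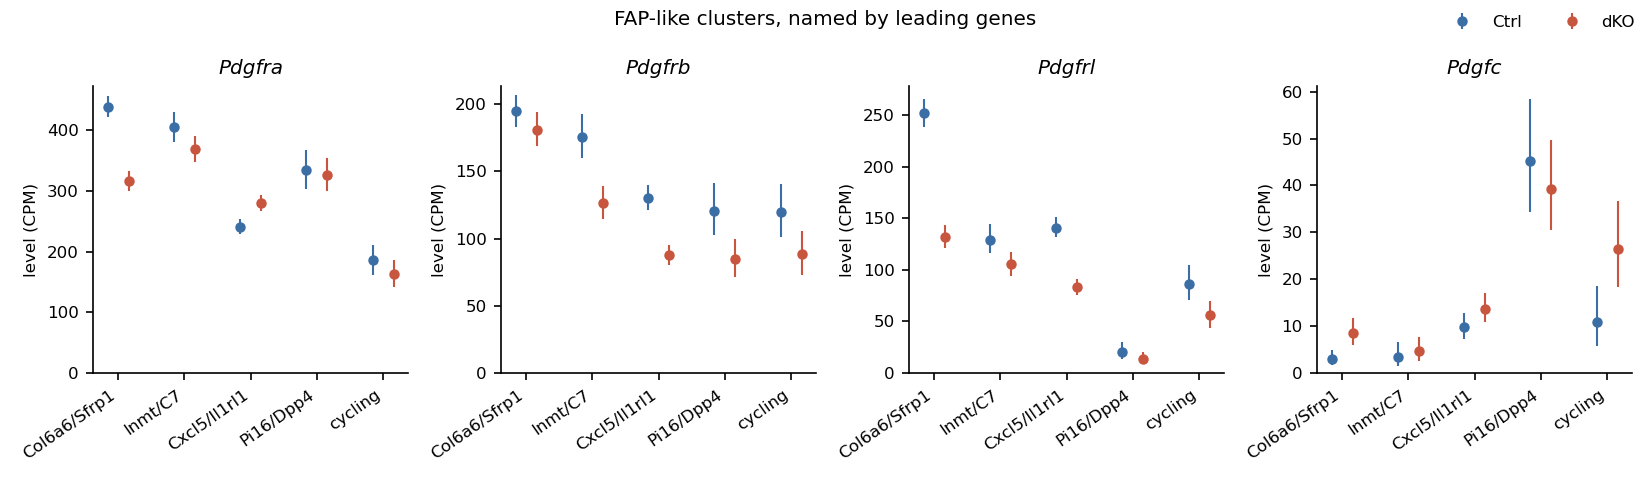
Level in CPM (vertical axes, linear from 0) of Pdgfra, Pdgfrb, Pdgfrl and Pdgfc in the 4 FAP-like clusters and the cycling FAP-like cluster of Ctrl (blue) and dKO (red), with bars for 95% Poisson counting intervals. For Pdgfrb and Pdgfrl the red point lies below the blue one in all 5, not always past 1.5-fold. For Pdgfra it lies above in the Cxcl5/Il1rl1 cluster alone, and Pdgfc stands at 45.2 and 39.3 CPM in the Pi16/Dpp4 cluster.

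In tenocyte-like cells Pdgfrl went the other way. It had 315 UMIs in Ctrl and 258 in dKO, a log2 ratio of 0.52 (0.28 to 0.76), short of 1.5-fold. In thinned cells it was found in 25.4% of Ctrl (18.4 to 33.3) and 44.3% of dKO cells (33.1 to 55.9), and 33 of the 258 dKO UMIs came from 1 cell, without which the log2 ratio was 0.39. Thinning cells to 2000 UMIs gave a log2 ratio of 1.03, so the size of this difference depended on that setting. Pdgfrb in the same cells had a log2 ratio of -0.41 (-0.72 to -0.11), but 0.28 when cells were thinned to 2000 UMIs, so its direction depended on that setting as well. Tenocyte markers summed to 27644 and 29826 CPM there, with 9 of 9 detected in each library, and FAP markers to 35175 CPM in Ctrl (13 of 13) and 41002 CPM in dKO (12 of 13). The part of FAP genes in the Pdgfrl difference was not tested.

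MuSC-like cells, in which Yy1 was deleted, had 48 Pdgfrl UMIs in 34 of 117 Ctrl cells and 3 UMIs in 3 of 30 dKO cells. The log2 ratio was -2.10 (-4.43 to -0.47), lower by the rule, as were 12% of 3982 genes of that class. Both values are small, and at 2000 UMIs per cell the shares were 8.04% (3.74 to 14.7) and 0 of 30, which leaves up to 11.6%. Markers of FAPs moved in the same direction in these cells, from a summed 941 CPM to 477 CPM, with 12 of 13 detected in each library. The 10 MuSC markers went from 4485 to 3477 CPM, the 10 cell cycle genes from 762 to 386 CPM (10 and 9 detected) and the 9 myocyte markers from 2745 to 5324 CPM (9 and 7 detected). The part of these lists in the Pdgfrl value was not tested. Pdgfrb had 5 and 0 UMIs and Pdgfra 7 and 1 in MuSC-like cells.

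Smooth muscle/pericyte-like cells had a Pdgfrb log2 ratio of -0.58 (-0.90 to -0.27), below Ctrl but under 1.5-fold. The class is mixed, and its make-up moved along: the 9 pericyte markers summed to 12431 CPM in Ctrl and 6355 CPM in dKO, and the 8 smooth muscle markers to 20696 and 27021 CPM. Sub-clustering gave 4 groups, in which Pdgfrb over both libraries stood at 2048 CPM (1799 to 2321) in 39 pericyte-like cells with Kcnj8 and Abcc9, at 539 CPM (443 to 650) in 31 smooth muscle-like cells with much Rgs5, and at 153 CPM (116 to 197) in 47 smooth muscle-like cells with most Myh11. The fourth group, of 25 Ctrl and 3 dKO cells, carried EC genes such as Cdh5 beside pericyte genes and had 631 CPM. Its median was 12219.5 UMIs per cell against 2644 in the pericyte-like group, and whether each barcode held a single cell was not tested. In the pericyte-like group alone Pdgfrb was 2096 CPM in Ctrl and 1900 CPM in dKO, a log2 ratio of -0.14 (-0.60 to 0.30), and in the group with most Myh11 the ratio was -0.32 (-1.30 to 0.57). The smooth muscle-like group with much Rgs5 had 93 UMIs in 23 Ctrl cells and 16 in 8 dKO cells, 7 of them in 1 cell (-1.14, -2.00 to -0.36). The group carrying EC genes had 204 and 14 UMIs, 8 of the 14 in 1 of 3 dKO cells (-0.87, -1.76 to -0.087). The ratio was thus below 0 in each of the 4 groups. Without the group carrying EC genes the ratio of the whole class was -0.51 (-0.87 to -0.17).

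Receptor genes were also counted cell by cell, over both libraries and in cells thinned to 2000 UMIs. Among 2132 FAP-like cells, 250 of the 999 with a Pdgfra UMI also had a Pdgfrb UMI (25.0%, 22.4 to 27.8), against 249 of the 1133 without (22.0%, 19.6 to 24.5). Thus 250 of the 2132 cells carried both receptor messages at this depth, and the intervals with and without Pdgfra overlapped. In smooth muscle/pericyte-like cells Pdgfrb was found in 76 of 130 cells and Pdgfra in 0.

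Ligand genes were turned to next. Pdgfa had the broadest pattern. Its level was highest in smooth muscle/pericyte-like cells, at 356 CPM (317 to 400) in Ctrl against 449 CPM (367 to 544) in dKO. Tenocyte-like cells followed at 212 CPM (190 to 236) and 191 CPM (163 to 222), and MuSC-like cells at 148 CPM (133 to 165) and 162 CPM (131 to 197). The intervals of tenocyte-like and MuSC-like cells were apart in Ctrl and overlapped in dKO. EC-like cells stood at 82.9 CPM (72.3 to 94.6) and 97.5 CPM (77.9 to 121), MO/MP-like cells at 43.5 and 42.4 CPM, and FAP-like cells, which carry the receptor for this ligand, at 22.8 and 20.1 CPM. By sheer number MO/MP-like cells nevertheless held the largest part of Pdgfa UMIs, 25.5% in Ctrl and 30.3% in dKO.

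Within classes Pdgfa was uneven. Among EC-like cells it was concentrated in the cluster of Gkn3 and Cytl1, which also holds the arterial gene Gja5, at 250 CPM in Ctrl and 262 CPM in dKO, against 72.0 and 65.7 CPM in the cluster of Car4 and Gpihbp1, a capillary gene, and 40.9 and 46.3 CPM in the cluster of Selp and Sele, which are genes of venules. Among MO/MP-like cells it was highest in the cluster of Rnf128 and Spp1 (72.6 and 65.8 CPM), and the cluster with least of it in Ctrl had 17 and 26 UMIs (log2 ratio 1.03, 0.095 to 2.01). In the smooth muscle/pericyte-like class it stood at 526 CPM over both libraries in the group with most Myh11 and 242 CPM in the pericyte-like group, the reverse of Pdgfrb.

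None of these classes passed the 1.5-fold rule for Pdgfa as a whole. Log2 ratios were -0.038 (-0.23 to 0.15) in MO/MP-like, 0.23 (-0.14 to 0.60) in EC-like, -0.15 (-0.43 to 0.12) in tenocyte-like, 0.12 (-0.21 to 0.45) in MuSC-like and 0.33 (-0.0033 to 0.66) in smooth muscle/pericyte-like cells, where it was -0.028 without the group carrying EC genes. The sub-groups of that class did not share a direction. The ratio was 0.34 (-0.10 to 0.77) in the group with most Myh11, 0.46 (-0.86 to 1.66) in the pericyte-like group and -1.33 (-2.29 to -0.48) in the smooth muscle-like group with much Rgs5, from 86 UMIs in 23 Ctrl cells and 13 in 8 dKO cells, 6 of them in 1 cell. In the group carrying EC genes 51 and 15 UMIs gave 1.23 (0.30 to 2.09), but 8 of the 15 were in 1 of 3 dKO cells, and of cells thinned to 2000 UMIs 6 of 25 in Ctrl and 0 of 3 in dKO had a UMI. In thinned FAP-like cells Pdgfa was found in 18 of 999 cells with a Pdgfra UMI (1.80%, 1.07 to 2.83) and 48 of 1133 without (4.24%, 3.14 to 5.58), both libraries pooled. These intervals were apart when pooled and in Ctrl (0.70 to 3.14 against 3.34 to 7.23) but overlapped in dKO (0.96 to 3.64 against 2.19 to 5.34). B cell-like cells had 0 Pdgfa UMIs in 97 and 71 thinned cells. Over both libraries the Cxcl5/Il1rl1 cluster, lowest in Pdgfra, had most Pdgfa of the non-cycling FAP-like clusters (32.3 CPM). The others had 4.64 to 19.0 CPM. The part of the clusters in the shares with and without Pdgfra was not tested.

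Pdgfb, the ligand with which endothelium recruits pericytes, was highest in EC-like cells, at 173 CPM (157 to 189) in Ctrl against 142 CPM (118 to 170) in dKO. Smooth muscle/pericyte-like cells came next at 76.7 CPM (58.9 to 98.1) and 30.2 CPM (12.2 to 62.3), followed by MO/MP-like cells at 27.5 CPM (24.7 to 30.5) and 26.5 CPM (23.1 to 30.1). In dKO the last pair of intervals overlapped. The second place of smooth muscle/pericyte-like cells rested on their group carrying EC genes. Once that group was left out, the class stood at 19.4 and 15.5 CPM, from only 10 and 3 UMIs. These levels were below those of MO/MP-like cells, with intervals that overlapped theirs in both libraries. Lymphatic EC-like cells, at 47.4 and 62.5 CPM, rested on 5 and 4 UMIs, and MuSC-like cells had 17.3 and 8.08 CPM from 40 and 5 UMIs. FAP-like cells had 4 UMIs in 1098 Ctrl cells and 3 in 1151 dKO cells, and tenocyte-like cells 0 in both. EC-like cells held 47.3% of Pdgfb UMIs in Ctrl (44.1 to 50.5) and 32.0% in dKO (27.3 to 36.9), whereas MO/MP-like cells went from 36.9% (33.9 to 40.02) to 58.8% (53.7 to 63.7), so the class holding most Pdgfb UMIs was EC-like in Ctrl and MO/MP-like in dKO.

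The Car4/Gpihbp1 cluster carried most of the endothelial Pdgfb, at 238 CPM (215 to 264) in Ctrl against 240 CPM (191 to 297) in dKO, with a log2 ratio of 0.0082 (-0.35 to 0.35). The Gkn3/Cytl1 cluster had 135 and 114 CPM and the Selp/Sele cluster 59.5 and 57.9 CPM. Over all EC-like cells the log2 ratio was -0.28 (-0.58 to 0.01). At 2000 UMIs 25.1% of 398 Ctrl and 25.2% of 143 dKO EC-like cells had a Pdgfb UMI (20.9 to 29.7 and 18.3 to 33.1), with 67 and 36 cells left out. Unthinned, the shares were 46.5% and 34.6%. B cell-like cells gave 0 of 97 and 0 of 71. No change of Pdgfb in EC-like cells was detectable at this depth.

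Smooth muscle/pericyte-like cells had 63 Pdgfb UMIs in Ctrl and 7 in dKO, a log2 ratio of -1.34 (-2.71 to -0.22), lower by the rule as were 8.95% of 1811 genes of that class. Of these UMIs 53 and 4 lay in the group carrying EC genes. Within that group the log2 ratio was -0.73 (-2.66 to 0.71), an interval that held 0. The rest of the class had 10 and 3 UMIs (19.4 and 15.5 CPM), under the minimum set for a ratio. The lower call of the class was thus not seen within that group and could not be checked outside it. The 12 EC markers summed over the class moved with Pdgfb, from 2663 CPM (11 of 12 detected) to 1391 CPM (10 of 12). Among MO/MP-like clusters Pdgfb lay between 10.4 and 39.4 CPM in Ctrl. The cluster led by Ear2, with Retnla, had 23 and 50 UMIs (17.0 and 37.3 CPM, log2 ratio 1.13, 0.39 to 1.91), while the cluster led by Apoe and Ms4a7 had 214 and 95 UMIs (39.4 and 28.9 CPM, -0.45, -0.81 to -0.09). For the MO/MP-like class as a whole the log2 ratio was -0.055 (-0.30 to 0.19).

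Pdgfc and Pdgfd were sparser. Pdgfc had 366 UMIs in all of Ctrl and 409 in dKO, divided mainly between MO/MP-like cells (43.7% and 35.5%) and FAP-like cells (37.7% and 49.6%). Its level was low throughout: 9.28 and 13.2 CPM in FAP-like, 12.2 and 16.8 CPM in MO/MP-like and 16.7 and 14.7 CPM in tenocyte-like cells, with 10.95 and 30.2 CPM from 9 and 7 UMIs in smooth muscle/pericyte-like cells. Only 3 and 1 UMIs were counted in EC-like cells. Both FAP-like and MO/MP-like cells had 1 cluster with the highest level. Among FAP-like cells it was the Pi16/Dpp4 cluster, at 45.2 CPM (34.3 to 58.4) in Ctrl against 39.3 CPM (30.5 to 49.8) in dKO, against 2.99 to 9.76 CPM in the other Ctrl clusters. Among MO/MP-like cells it was the cluster of Fcna and Cd163, genes of resident macrophages, at 50.3 CPM (38.2 to 65.0) and 61.0 CPM (46.6 to 78.3), against at most 13.6 CPM in the other Ctrl clusters.

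Ratios of Pdgfc lay above 0 in both classes. In FAP-like cells 138 and 203 UMIs gave a log2 ratio of 0.51 (0.19 to 0.83) and in MO/MP-like cells 160 and 145 UMIs gave 0.46 (0.12 to 0.79), both under 1.5-fold. The first depended on the setting, since averaging each cell's own CPM gave 0.042 and thinning gave 0.060, with 19 of 1035 Ctrl and 19 of 1097 dKO thinned cells carrying a UMI. In the Col6a6/Sfrp1 cluster Pdgfc had 16 and 37 UMIs (2.99 and 8.46 CPM, interval of the log2 ratio 0.62 to 2.44). Cycling FAP-like cells had 13 and 35 UMIs, a log2 ratio of 1.29 (0.34 to 2.33), higher by the rule as were 7.15% of the 3722 genes, and 9 of the 35 came from 1 cell. The UMIs of this value lay under the minimum of 100 set for the genes behind that percentage, as did those of Pdgfrl in MuSC-like and Pdgfb in smooth muscle/pericyte-like cells.

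Pdgfd was found in EC-like cells at 38.6 CPM (31.5 to 46.8) in Ctrl against 31.0 CPM (20.4 to 45.1) in dKO, in smooth muscle/pericyte-like cells at 26.8 and 21.6 CPM, in tenocyte-like cells at 19.96 and 18.1 CPM and in FAP-like cells at 5.52 and 6.98 CPM. The intervals of the first 3 classes overlapped with their neighbours in this order in both libraries. Only 3 UMIs were counted in 1421 Ctrl MO/MP-like cells and 0 in 1130 dKO cells, which allows up to 0.348 CPM. The Gkn3/Cytl1 cluster had 72.2 CPM (45.3 to 109) in Ctrl against 34.1 CPM (12.5 to 74.2) in dKO, from 22 and 6 UMIs. In FAP-like cells the Pi16/Dpp4 cluster stood out again, at 18.7 CPM (11.97 to 27.8) and 21.9 CPM (15.5 to 30.1), against 3.02 to 6.15 CPM in the other Ctrl clusters. The log2 ratio of Pdgfd was 0.34 (-0.09 to 0.77) in FAP-like and -0.32 (-0.99 to 0.30) in EC-like cells. Among FAP-like clusters the ratio lay above 0 in the Col6a6/Sfrp1 cluster, from 25 and 41 UMIs (1.003, 0.25 to 1.78), and below 0 in the Cxcl5/Il1rl1 cluster, from 17 and 7 UMIs (-1.38, -2.89 to -0.037). The value of all FAP-like cells changed sign to -0.18 when cells were thinned and to -0.10 when the CPM values of single cells were averaged.

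**Figure D4:**
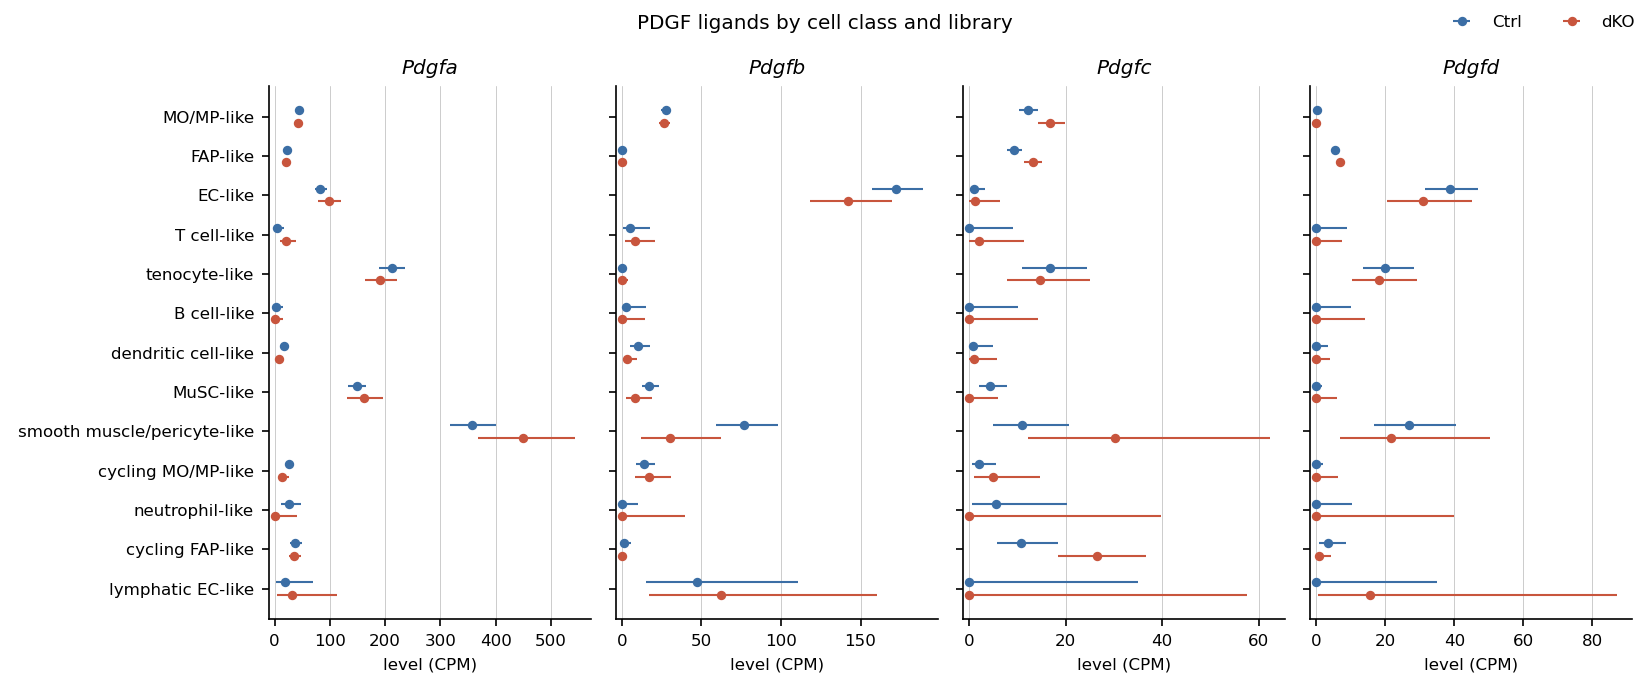
Level in CPM (horizontal axes, linear, a separate scale for each gene) of the 4 ligand genes in 13 cell classes of the Ctrl (blue) and dKO (red) libraries, with bars for 95% Poisson counting intervals. Pdgfa is highest in smooth muscle/pericyte-like cells, Pdgfb in EC-like cells and Pdgfd in EC-like cells among classes of at least 30 cells per library, and the wide bars belong to classes with few UMIs.

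Summed over whole libraries the family looked different. Pdgfb was 23.9 CPM in Ctrl and 12.8 CPM in dKO, a log2 ratio of -0.90 (-1.08 to -0.73), and was the 1 gene of 7 lower by the rule, where 6.97% of 12557 genes were lower and 3.32% higher. Pdgfa went from 54.5 to 39.7 CPM (-0.46, -0.56 to -0.36) and Pdgfra from 135 to 167 CPM (0.31, 0.25 to 0.36). Pdgfc, with a ratio of 1.4997 and a log2 ratio of 0.58 (0.38 to 0.79), fell just short of the 1.5-fold limit. In such sums fewer cells of a type and less RNA per cell cannot be told apart.

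The class make-up was therefore held fixed. FAP-like cells supplied 36.4% of all UMIs in Ctrl and 50.5% in dKO, and EC-like cells 6.54% and 2.87%. With each dKO class weighted by its share of UMIs in Ctrl, the log2 ratio was 0.0098 for Pdgfa, -0.25 for Pdgfb, -0.15 for Pdgfra, -0.44 for Pdgfrb, -0.62 for Pdgfrl, 0.48 for Pdgfc and -0.048 for Pdgfd. The whole-library values of Pdgfa and Pdgfb moved towards 0, Pdgfra changed sign, and Pdgfrb and Pdgfrl moved away from 0, from -0.19 and -0.32.

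**Figure D5:**
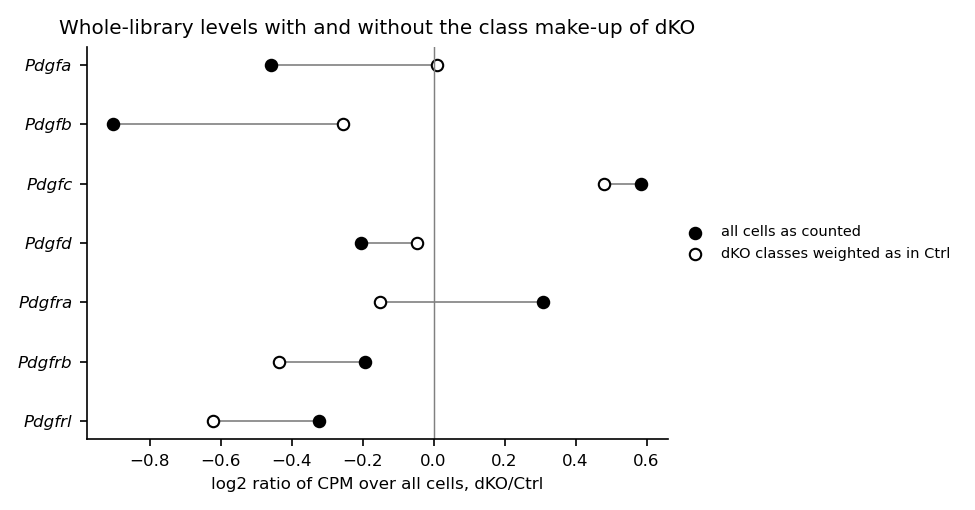
Log2 ratio of dKO to Ctrl CPM over all cells (horizontal axis) for the 7 genes, as counted (filled) and with each dKO cell class weighted by its share of UMIs in Ctrl (open). The open points of Pdgfa and Pdgfb lie nearer to 0 than the filled ones, that of Pdgfra lies on the other side of 0, and those of Pdgfrb and Pdgfrl lie farther left.

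Genes with like patterns were looked for over 25 sums of class and library with at least 20 cells, by Pearson correlation of log2(CPM + 10) among genes with at least 500 UMIs. The sums of a class in both libraries share their clustering and differ in depth, so the values are descriptions. Pdgfra went with Dpt (0.983), Cxcl14 (0.981) and Col14a1 (0.967), of which Dpt and Cxcl14 are on the list that named FAP-like cells. Nearest to Pdgfrb were Adamtsl1 (0.978), Tbx18 (0.970), a transcription factor known from mural cells, and Ddit4l (0.967), and nearest to Pdgfrl were Epha3 (0.969), Mfap4 (0.966) and Cpxm1 (0.966). Among ligands, Pdgfd was nearest to Kank1 (0.954), Ptprg (0.949) and Clu (0.946), Pdgfb to Parvb (0.925), Slc12a7 (0.910) and Kank3 (0.909), Pdgfa to the actin-binding tropomyosin gene Tpm1 (0.913), Mtss1l (0.901) and Mib1 (0.880), and Pdgfc to Itgb5 (0.851), Arhgap6 (0.806) and Sept8 (0.801). Pdgfc, with 366 and 409 UMIs over all cells, and Pdgfd, with 246 and 159, had the fewest of the 7 over both libraries together, and Pdgfd lies below the minimum set for the genes compared with it. Within the family the closest pair was Pdgfra with Pdgfrl (0.809), and Pdgfb with Pdgfrl was the farthest apart (-0.436).

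Around the ligands and receptors, 57 other genes of PDGF signalling in 5 lists were counted: proteases that free the ligands, ligand-binding proteins and co-receptors, adaptors and effectors of the receptors, receptor phosphatases and ubiquitin ligases, and feedback inhibitors. In FAP-like cells 52 had at least 100 UMIs, of which 2 were higher and 3 lower in dKO by the 1.5-fold rule, beside 2.56% of genes higher and 3.05% lower, with a median log2 ratio of -0.016 against -0.060 over all genes. The higher ones were Ptprj (0.74, 0.51 to 0.97), a phosphatase that acts on PDGF receptors, and Pcsk5 (0.61, 0.49 to 0.72), a proprotein convertase. Of the lower ones the feedback inhibitor Spry1 (-0.84, -0.97 to -0.70), which dampens receptor tyrosine kinase signalling, had 1190 and 688 UMIs, and the phosphatase gene Dusp4 (-0.64, -1.19 to -0.10) had 74 and 49. Both Spry1 and Dusp4 belong to the list of feedback inhibitors, of which 2 of 8 measured genes were lower and 0 higher. The list did not share a direction. Its gene with most UMIs, Errfi1 (0.47, 0.43 to 0.52, from 5710 and 8188 UMIs), and Spred1 (0.18, 0.094 to 0.26) lay above 0. The others lay below 0. None of the 7 ligand-binding proteins and co-receptors passed the rule in either direction.

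In EC-like cells 1 of 38 measured genes was higher, Errfi1 (0.60), and 4 were lower, among them the adaptor Gab1 (-0.74, from 123 and 24 UMIs) and the feedback inhibitor Spry4 (-0.68), beside 4.46% of genes higher and 6.23% lower. MO/MP-like cells had 3 of 43 higher, led by Socs3 (1.10, 0.98 to 1.22), which rests on 975 and 1380 UMIs, and Socs1 (0.87), both inhibitors of cytokine signalling, and 1 lower, the caveolin Cav1 (-1.03), against the 4.3% and 2.76% of genes given above. In these cells the 12 EC markers summed to 40.6 and 28.4 CPM and the 13 FAP markers to 540 and 391 CPM, all detected in both libraries, and their part in the Cav1 value was not tested. Socs3 went the other way in the smooth muscle/pericyte-like class (-1.34) and in MuSC-like cells (-1.66). In the former 1 of 18 genes was higher, the phosphatase Ptpn1 (0.63), and 4 were lower, including the co-receptor Nrp1 (-1.18), beside 7.12% of genes higher and 8.95% lower. Nrp1 stood at 628 and 276 CPM there and at 1216 and 934 CPM in EC-like cells, and the part of the EC markers given above for the smooth muscle/pericyte-like class was not tested. In MuSC-like cells 1 of 21 was higher, the phosphatase and adaptor Ptpn11 (0.74), and 6 were lower, including the matrix protein gene Thbs1 (-1.26), beside 7.11% of genes higher and 12% lower. The 18 MO/MP markers summed to 461 and 123 CPM in MuSC-like cells (16 and 10 detected) and to 864 and 419 CPM in the smooth muscle/pericyte-like class (16 and 12 detected), while Thbs1 stood at 159 and 66.3 CPM in MuSC-like and 1259 and 1318 CPM in MO/MP-like cells. The part of these markers in the Thbs1 and Socs3 values was not tested.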

How the data were processed

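Live hind limb muscle cells were sorted after propidium iodide staining and red cell lysis, and 1 droplet library (10x Chromium) was made for Ctrl and 1 for dKO. The authors deposited raw UMI counts per gene and barcode, with no normalization. The file headers name Cell Ranger 3.0.2, whereas the submitters' processing notes name Cell Ranger 7.0.0, Seurat 4.3.0 and mm10. No mitochondrial gene is in the tables (0 symbols), and 7 barcodes occur in both libraries.

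Cells with fewer than 500 genes were left out (192 of Ctrl, 154 of dKO). Scrublet (scanpy 1.11.5, 30 components) called only 4 and 14 cells and did not work, so cells were ranked by score and the top 7.5% per library removed (325 and 250). Of 52 and 28 cells tied at the limit, 33 and 10 were removed by the order of their barcodes. Counts were integrated with Seurat 5.3.0 anchors (R 4.3.3, 2000 variable genes without the 7 members, 40 dimensions) and clustered at a resolution of 0.8. A cluster was named from 19 marker lists by whichever list had most members among the 10 leading genes, given at least 3 markers enriched 2-fold over the median other cluster. Where that was the cell cycle list, the cluster was called cycling and took the name of the other list with most enriched markers. A class of 24 Ctrl and 12 dKO cells is not reported here. Smooth muscle/pericyte-like cells were sub-clustered at 0.5 with 20 dimensions.

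UMIs were summed per class and library with exact Poisson intervals, shares have exact binomial intervals, and ratios have conditional binomial intervals (scipy 1.17.1), at 95%. Where a sum was 0, a floor of 3 counts gives the limit. With 1 library per group no test was possible. Interval and ratio code was tested on simulated data. Named genes were the 7 members, Yy1, the 3 genes most correlated with each member, and up to 2 higher and 2 lower pathway genes per class, beside markers that name clusters. Members and lists were chosen with earlier results of these data known. Alternatives were the scaling, per-cell averaging, thinning, leaving out the top cell, doublet and cell filters, integration, clustering choices and the gene minimum. Positions were looked up by symbol in GENCODE M21 (GRCm38). Tables of protein sequence were not used here.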

Additional observations from a re-analysis of the deposited data

Results flagged for a closer look

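Pdgfrl differed in direction between cell classes under the same comparison of dKO with Ctrl. Its log2 ratio was -0.84 in FAP-like cells, -0.63 in cycling FAP-like cells and -2.10 in MuSC-like cells, and 0.52 in tenocyte-like cells, each with a counting interval that leaves out 0. The value in MuSC-like cells rests on 48 and 3 UMIs. The difference between the classes was not tested, since each class was measured in 1 library per group.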

How the results depend on the processing

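No paired analysis was possible because each group had 1 library. Of 187 alternatives for 20 log2 ratios, 20 moved the value beyond its counting interval and 6 of these changed its sign. The cause was not tested. Among the 20 ratios the called ones were Pdgfrl in FAP-like cells and Pdgfb over all cells, and neither changed sign. Calls in cycling FAP-like, MuSC-like and smooth muscle/pericyte-like cells, and in single clusters, were not put through these alternatives. The mean of each cell's own CPM gave 0.16 for Pdgfa in MO/MP-like cells, and in FAP-like cells 0.042 for Pdgfc, -0.10 for Pdgfd and -0.25 for Pdgfra. Over all cells it gave -0.31 for Pdgfa, 0.22 for Pdgfc, -0.56 for Pdgfd, 0.19 for Pdgfra and -0.36 for Pdgfrb. Thinning to 2000 UMIs gave 0.31 for Pdgfa in MO/MP-like cells, and 0.060 for Pdgfc, -0.18 for Pdgfd and -0.74 for Pdgfrl in FAP-like cells. Over all cells thinning gave -0.30 for Pdgfa, -0.40 for Pdgfrb and -0.22 for Pdgfrl, and in tenocyte-like cells 1.03 for Pdgfrl and 0.28 for Pdgfrb. Scaling to the median gene gave -0.092 for Pdgfra in FAP-like cells. Without the group carrying EC genes, chosen after seeing the data like the weighting of FAP-like clusters, Pdgfa in smooth muscle/pericyte-like cells was -0.028.

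Shares of UMIs held moved in 19 of 70 alternatives. With no doublets removed, MO/MP-like cells held 23.1% (Ctrl) and 26.0% (dKO) of Pdgfa and 49.4% of Pdgfb in dKO, and FAP-like cells held 91.0% and 93.4% of Pdgfra, 63.7% and 78.9% of Pdgfrb and 81.9% of Pdgfrl in Ctrl. At a resolution of 0.4, FAP-like cells held 58.2% of Pdgfc in dKO, 98.2% and 98.9% of Pdgfra, 74.0% and 89.0% of Pdgfrb and 87.2% and 84.7% of Pdgfrl. In Ctrl the filter of 200 genes and 1000 UMIs gave 93.0% for Pdgfra and 66.8% for Pdgfrb, no integration 93.2% and members allowed among the variable genes 93.3% for Pdgfra. With a minimum of 20 UMIs, 531 genes were lower in FAP-like cells in place of 313. Few UMIs widen the counting intervals of Pdgfc and Pdgfd and of classes with few cells.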
